A study of Danio rerio with 18 samples.

Results

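Zebrafish larvae that had eaten a low-fat meal 4 h earlier were compared with unfed larvae of the same cohort, gene by gene, in messenger RNA of the digestive organs. The comparison rests on 6 of the 18 samples of the study, 3 pools of fed and 3 pools of unfed larvae. All groups were wild-type larvae of the AB background at 6.5 days post fertilization, with no transgene, and each sample pooled intestine, liver and pancreas from 10 larvae. The low-fat feed was 10% egg white. The larvae of the other cohort ate a 5% egg yolk emulsion and had unfed controls of their own. The sample labels give no sampling time for the unfed pools, so feeding and time of sampling cannot be told apart. Triplicates came from separate pairwise crosses, per the design text. Each gene stands for 1 symbol, through the transcript with the highest average abundance, and a gene entered if its average log2 CPM (log2 of counts scaled to the library total) was at least 0. By this rule 12828 genes were taken from 21227 symbols. A gene is called when the adjusted p in the authors' deposited table is under 0.05.

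Interferons are cytokines released on infection, and their signalling turns on a broad set of antiviral genes in many cell types. The heat shock response raises chaperones that bind unfolded proteins, among them the inducible Hsp70 and Hsp90 proteins and their J-domain partners. In a feeding larva the intestine takes up the meal, the exocrine pancreas supplies digestive enzymes and the liver handles the nutrients that arrive. The question was which genes differ from the unfed state 4 h after a meal that brings protein and little fat.

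The values are fold changes of the authors' edgeR comparison. Values of single pools were not analysed here, so no level per pool is given and the depth behind each value is unknown. The authors' deposited table gives a p beside each fold change, and their ratio implies a standard error of 0.393 on the log2 scale at a log2 CPM of 0 to 1 and of 0.358 at 5 or more. For 227 genes the log2 CPM was 3 to 5 and the log2 fold change 0.5 to 1 in size. Of their implied errors 90% lay between 0.359 and 0.366. Among 15 genes of that abundance with a log2 fold change of at least 2 in size the median was 0.398. At a given abundance and size of change the error thus varied little between genes, and a p carries little of the gene's own spread between pools. At a log2 CPM of 5 or more the 95% interval reached 0.702 to each side. The defining markers of the 3 dissected organs were present, with average levels in the authors' deposited table of 1043 CPM for the enterocyte fatty acid binding protein gene fabp2, 950 CPM for its liver counterpart fabp10a and 44.5 CPM for the insulin gene ins. In pooled organs, fewer cells of a type and less RNA per cell cannot be told apart.

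Most of the transcriptome of the digestive organs lay close to the unfed level at 4 h, and the genes that differed were nearly all higher in fed larvae. Of the genes tested, 56 (0.437%) rose and 1 (0.0078%) fell in the authors' deposited table, which is 0.444% in all. With no abundance floor the lower calls numbered 20. The median log2 fold change over all genes was 0.02, with quartiles at -0.14 and 0.19, and the values ran from -1.75 to 5.49. A log2 fold change above 2 was reached by 39 genes and one below -2 by 0 genes. At an unadjusted p under 0.05 the authors' deposited table held 230 genes higher (1.79%) and 97 lower (0.756%). The smallest rise called was 1.42 on the log2 scale. An uncalled log2 fold change reached 1.87 in size, so the table could not call changes much smaller than these. Of the 57 called genes 5 had a log2 CPM of 5 or more, as had 1879 of the 12828 genes. Over transcripts, the authors' deposited table called 143 higher and 36 lower, of which 66 had a log2 CPM under 0.

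**Figure D1:**
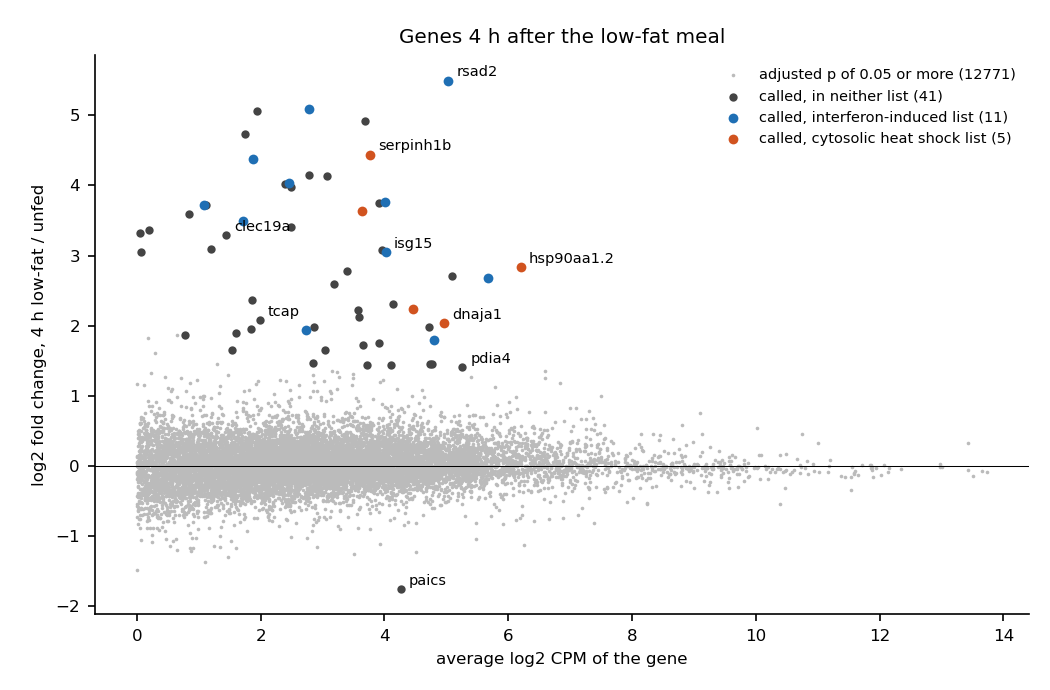
Log2 fold change of each of the 12828 genes 4 h after the low-fat meal against unfed larvae (vertical axis) by its average log2 CPM (horizontal axis), with called genes drawn large. The 11 called interferon-induced genes (blue) and the 5 called cytosolic heat shock genes (orange) lie between 1.79 and 5.49, and paics is the 1 called gene below 0.

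Of the 57 called genes 21 were in at least 1 of the 36 gene lists used here. Clone-based symbols (beginning with si:, zgc: or wu:) were carried by 24 of the 57, some of which are not named. Among the called genes in the lists, antiviral genes made up the largest group. The antiviral gene rsad2, which codes for viperin, a radical SAM enzyme that interferes with viral replication, rose most, by 5.49 on the log2 scale (the authors' deposited table, adjusted p = 4.4e-30, 95% interval 4.62 to 6.37). This is a 45-fold higher level, at an average of 32.6 CPM. Its transcript lies on chromosome 17 from 35524581 to 35528452 of Zv9. Its neighbour cmpk2, from 35529981 to 35542578, codes for a mitochondrial nucleotide kinase and rose by 4.37 (the authors' deposited table, adjusted p = 7.3e-17, 95% interval 3.45 to 5.3). Both genes of this pair thus exceeded a 20-fold rise.

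Of 28 measured genes on the interferon-induced list, 11 rose and 0 fell, against 0.437% of all genes higher. This list and those that follow were drawn up with earlier results of these data known. Their counts beside the share of all genes are therefore descriptive and no independent test. The median of the list was 0.70 in the authors' deposited table, against 0.02 over all genes, and 22 members lay above 0. Uncalled members named here and in the lists that follow were chosen after their values were seen. Excepted are those named as the 2 most abundant of a list without a call. The factor irf7, which drives interferon transcription, had 1.15 (adjusted p = 0.27), and irf9, another interferon regulatory factor, had -0.05 in the authors' deposited table.

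The called members included several antiviral effectors. The dynamin-like antiviral GTPases mxe and mxa rose by 4.03 (95% interval 3.1 to 4.92) and 3.49 (95% interval 2.60 to 4.37) in the authors' deposited table. Another member of that family, mxf, had -0.11 (adjusted p = 1.00) in the authors' deposited table. The ubiquitin-like modifier isg15 rose by 3.05 (95% interval 2.27 to 3.83) at 16.2 CPM in the authors' deposited table. The IFIT proteins bind viral RNA in mammals, and 3 of their genes are on the list. They rose by 5.09 (zgc:123282, now ifit8 in RefSeq), 3.72 (si:dkey-26g8.11, now ifit10) and 2.67 (ifit2, now ifit15) in the authors' deposited table. The fish kinase pkz, which binds Z-form nucleic acid and blocks translation, rose by 1.93 and the helicase gene helz2 by 1.79 (the authors' deposited table, adjusted p = 2.8e-04 and 6.6e-04). The other 17 members were not called.

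The uncalled members included some sensors of viral RNA and genes of antigen presentation. The RNA helicase dhx58 had 1.31 (adjusted p = 0.099) and its relative ifih1 0.61 (adjusted p = 1.00) in the authors' deposited table. The antigen presentation genes b2m and tap1 had 0.17 and -0.21, and the guanylate-binding protein genes gbp1 and gbp2 had -0.22 and -0.04 in the authors' deposited table. The feedback inhibitor gene socs1a had 0.67 in the authors' deposited table, uncalled (adjusted p = 1.00). The lowest value of the list was that of irf1b, at -0.56 (adjusted p = 1.00) in the authors' deposited table.

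Several called genes outside the list belong to families known as virus-induced in fish or mammals. The members named in the next sentences were picked after their values were seen. The gig2 family was first described in virus-infected fish cells, and gig2l rose by 3.36 and gig2e by 2.12 in the authors' deposited table. The genes mov10b.1 and mov10b.2, which code for RNA helicases, rose by 1.98 and 1.95 in the authors' deposited table. For rnf213b, a giant ubiquitin ligase gene, the rise was 2.31 in the authors' deposited table (95% interval 1.56 to 3.06). A pair of herc genes on chromosome 1, herc56.4 and herc56.2 in RefSeq, rose by 3.72 and 3.10 in the authors' deposited table. The gene now named ifit14, next to ifit2 on chromosome 17, rose by 2.70 in the authors' deposited table. Of the 5 largest rises, si:dkeyp-118h9.7 (5.06, chromosome 9) has no other name in the sources used here, and si:ch211-24o10.6 (4.91, chromosome 15) is igldcp in RefSeq, both values from the authors' deposited table.

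Some called genes lay side by side. Within 100 kb of another called gene lay 22 of the 57, in 9 blocks, and 5 of the 22 share the same coordinates with another. The largest block, also picked after its values were seen, is a row of ifi27 genes on chromosome 13, whose mammalian relative is an interferon-induced mitochondrial protein gene. In the authors' deposited table ifi27.6 (si:dkey-188i13.9) rose by 4.13, ifi27.2 (zgc:152791) by 3.75, ifi27.1 (zgc:123068) by 3.07, ifi27.3 (si:dkey-188i13.6) by 1.87 and ifi27.4 (si:dkey-188i13.7) by 1.65. The next copies along the chromosome, ifi27.7 and ifi27.8, had 0.28 and -0.17, and the flanking genes snapc1b and phf3 had 0.29 and 0.03 in the authors' deposited table, none of them called. Copies of such a row can share reads of 50 bases, so the split between neighbours is uncertain. The gene phf3 has the same start as ifi27.8, so the split of reads between these is uncertain too. The block thus had 5 called copies within 38003194 to 38040199 of Zv9 and uncalled genes on both sides.

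**Figure D2:**
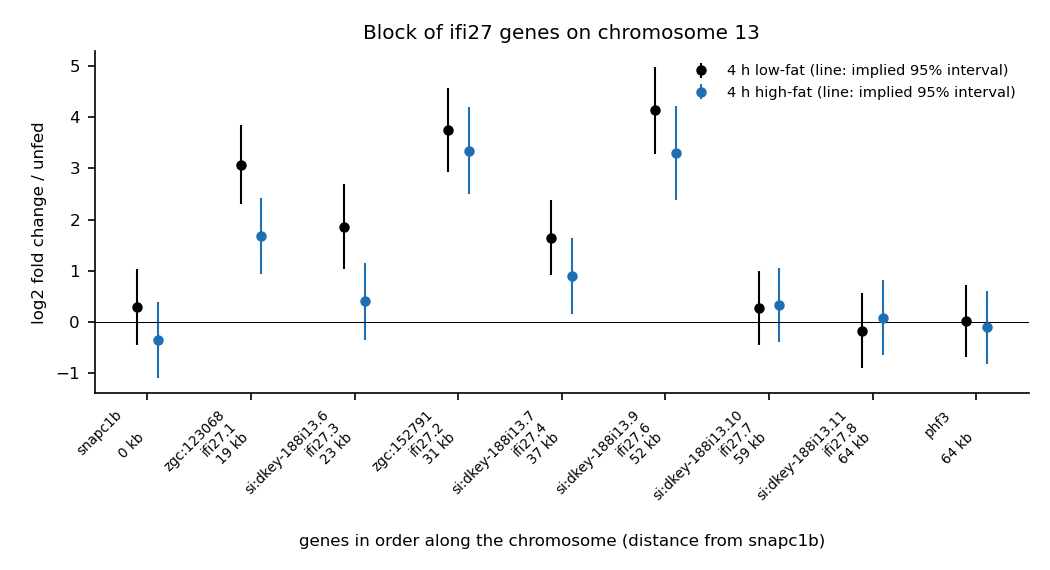
Log2 fold change against unfed larvae (vertical axis) of the genes of the ifi27 row on chromosome 13, in order along the chromosome with the distance from snapc1b in kb, 4 h after the low-fat meal (black) and 4 h after the high-fat meal (blue), with lines for 95% intervals from the implied standard errors. The 5 copies from ifi27.1 to ifi27.6 lie between 1.65 and 4.13 after the low-fat meal, and ifi27.7, ifi27.8 and both flanking genes lie between -0.17 and 0.29.

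Heat shock chaperones were another group among the called genes in the lists. The collagen chaperone gene serpinh1b, known as hsp47, is a heat shock gene whose protein works in the endoplasmic reticulum, and it rose by 4.44 (the authors' deposited table, adjusted p = 3.6e-21, 95% interval 3.60 to 5.28). It lies on chromosome 15 from 28732298 to 28736597. The inducible hsp70l on chromosome 8 rose by 3.64 (95% interval 2.83 to 4.45) at 12.5 CPM in the authors' deposited table. The inducible Hsp90 gene hsp90aa1.2 rose by 2.84 (95% interval 2.09 to 3.59) at 73.5 CPM in the authors' deposited table. The J-domain partners of Hsp70 rose by 2.24 (dnajb1b) and 2.03 (dnaja1) in the authors' deposited table. These were the 5 called members among 30 measured genes of the cytosolic heat shock list, which also holds serpinh1b, against 0.437% of all genes higher, and 0 were lower.

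The heat shock list had a median of 0.37 in the authors' deposited table, 27 of its members were above 0 and 11 were higher at an unadjusted p under 0.05, against 1.79% of all genes. The uncalled members included constitutive genes. The constitutive Hsp70 gene hspa8 had 0.01 and the constitutive Hsp90 gene hsp90ab1 -0.05 in the authors' deposited table. The heat shock factor genes hsf1 and hsf2 had -0.17 and -0.11 in the authors' deposited table. Just short of the threshold, hspa4a, of the Hsp110 family, had 1.35 (adjusted p = 0.061), dnajb1a 1.29 (adjusted p = 0.13) and ahsa1l, of an Hsp90 co-chaperone family, 1.23 (adjusted p = 0.16) in the authors' deposited table. Its relative hsp90aa1.1 had 0.42 (adjusted p = 1.00) in the authors' deposited table, so of this tandem-named pair only hsp90aa1.2 was called. Outside the list, hspbp1, which codes for a nucleotide exchange partner of Hsp70, rose by 1.43 (adjusted p = 0.037) in the authors' deposited table.

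The replication gene mcm5 rose by 4.02 in the authors' deposited table, but its locus on chromosome 3, from 26878041 to 26953764, is shared with copies of hsp70. The joined symbols of that locus, hsp70.2;mcm5 and hsp70.3;hsp70l, rose by 4.73 and 3.98 in the authors' deposited table. The value of mcm5 is therefore uncertain as a measure of that gene. It was the 1 called member among 33 genes of cell cycle and DNA replication, against 0.437% of all genes called higher. The median of that list was -0.03 in the authors' deposited table. In the same way si:ch73-341p18.7, with 2.22 in the authors' deposited table, shares its locus with dnajb1b.

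Of 38 chaperones and folding enzymes of the endoplasmic reticulum, pdia4, a protein disulfide isomerase gene, rose by 1.42 (adjusted p = 0.037) in the authors' deposited table, and 0 fell. The list had a median of 0.37 in the authors' deposited table, with 36 members above 0 and 10 higher at an unadjusted p under 0.05. Of all genes 0.437% were called higher and 1.79% were higher at that unadjusted p. Its best known member hspa5, the gene of the chaperone BiP, had 0.99 (adjusted p = 0.55) in the authors' deposited table. The values were 1.23 for creld2, 0.98 for hyou1 and 0.18 for xbp1, the transcription factor of the unfolded protein response, all uncalled in the authors' deposited table. This list thus lay above the median gene in most members with 1 call.

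**Figure D3:**
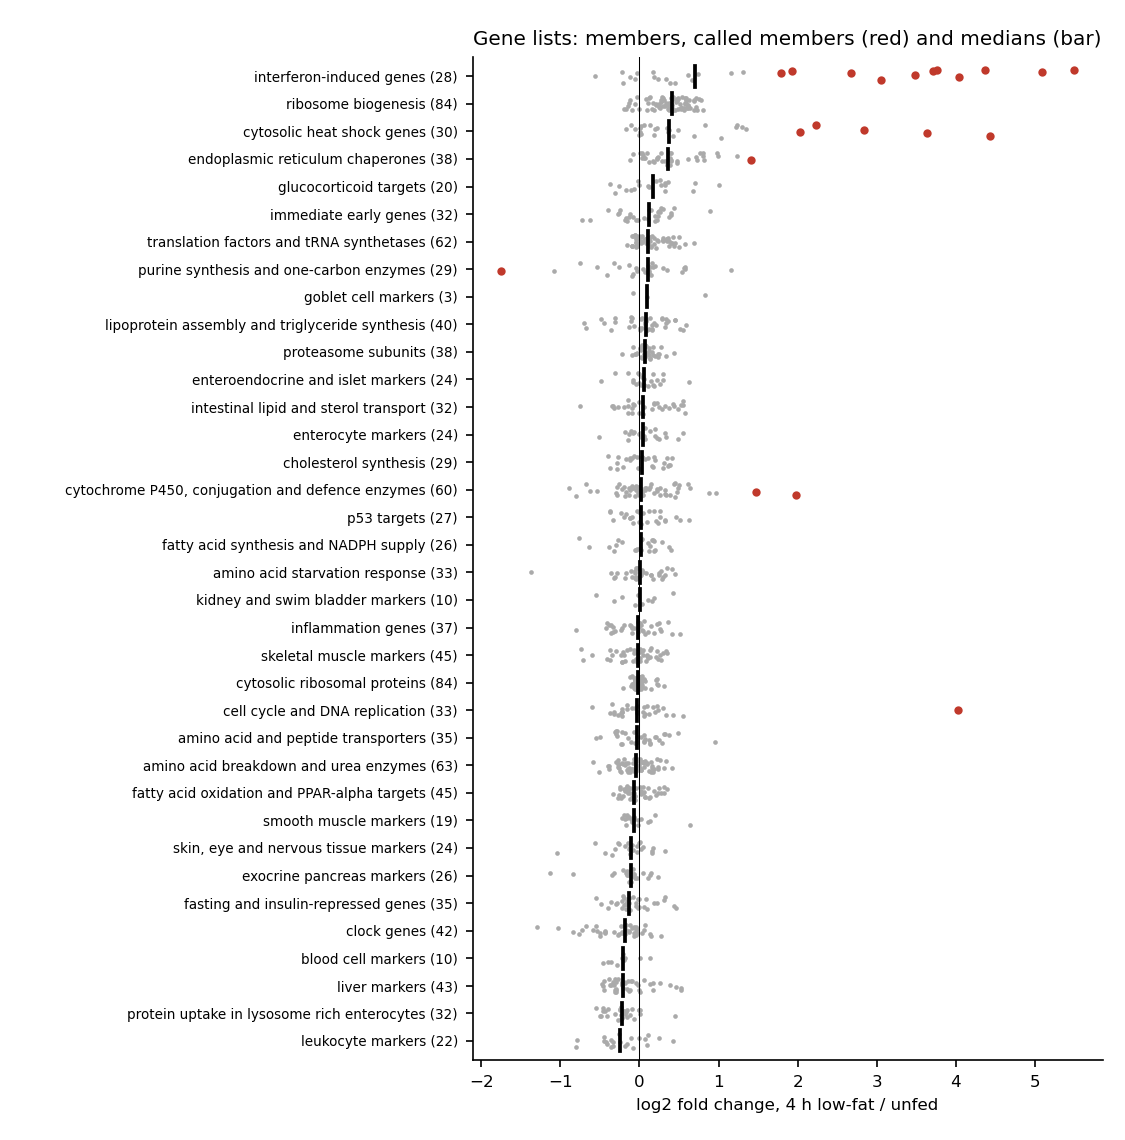
Log2 fold change 4 h after the low-fat meal against unfed larvae (horizontal axis) of the measured members of 36 gene lists, 1 row per list with the number of measured members in brackets, called members in red, others in grey and the median as a bar. The interferon-induced list has the highest median, 0.70, and the leukocyte marker list the lowest, -0.25.

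The 1 gene that fell was paics, which codes for a bifunctional enzyme of purine synthesis. Its value was -1.75 (the authors' deposited table, adjusted p = 0.0010, 95% interval -2.47 to -1.03), a 3.36-fold lower level at an average of 19.1 CPM. It lies on chromosome 20 from 25647721 to 25674757, and its 4 transcripts had values from -1.84 to -1.75 in the authors' deposited table. These transcripts share 1 locus and are not independent of each other. The gene ppat carries the same coordinates, so the split of reads between both genes is uncertain. No other gene of the pathway was called. Among 29 purine synthesis and one-carbon enzymes the median was 0.10, and the first enzyme ppat had -0.41, gart 0.17, pfas -0.04, adsl -0.03 and atic -0.08 in the authors' deposited table, all with an adjusted p of 1.00. The 2 lowest after paics were impdh1a at -1.08 (adjusted p = 0.55) and mthfd1a at -0.75 (adjusted p = 1.00) in the authors' deposited table.

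Genes of metabolism and membrane transport made up a small further set. The vitamin D hydroxylase gene cyp2r1 rose by 1.98 (adjusted p = 0.010) in the authors' deposited table, but the median adjusted p over its transcripts was 0.18, past the threshold. The P450 gene cyp2k6 rose by 1.47 (adjusted p = 0.033) in the authors' deposited table. With cyp2r1 it made the 2 calls among 60 measured P450, conjugation and defence enzymes, against 0.437% of all genes called higher. The acyl-CoA synthetase gene acsl4l rose by 1.73, the monocarboxylate transporter gene slc16a9a by 1.44 and rh50, of the Rh family of membrane glycoproteins, by 1.46 in the authors' deposited table. The lectin-like gene clec19a rose by 3.29 (adjusted p = 1.1e-12, 95% interval 2.5 to 4.09) in the authors' deposited table. The gene aste1 rose by 2.60 and tcap, which codes for telethonin of the muscle sarcomere, by 2.08 in the authors' deposited table. Of the 45 measured skeletal muscle markers 0 were called, against 0.444% of all genes, with a median of -0.02 in the authors' deposited table.

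No list of genes that handle fat and cholesterol held a call 4 h after the low-fat meal, against 0.444% of all genes called. At that share no call is usual for lists of this size. Calls outside these lists include the acyl-CoA synthetase gene acsl4l, given above. They also include a transcript without a symbol, annotated with hydroxymethylglutaryl-CoA reductase activity. It rose by 2.47 (adjusted p = 3.3e-06) in the authors' deposited table. Both were picked after their values were seen. The lipid droplet coat gene plin2 had -0.70 (adjusted p = 1.00) in the authors' deposited table. For lipoprotein assembly and triglyceride synthesis 0 of 40 genes were called, with a median of 0.08, a value of 0.33 for apobb, the main B apolipoprotein gene, and of -0.06 for apoa1b in the authors' deposited table. Fatty acid oxidation and PPAR-alpha targets (45 genes) had a median of -0.07, with 0.07 for acsl5 and -0.15 for ucp1 in the authors' deposited table. Cholesterol synthesis (29 genes) had 0.03, with 0.36 for lpin1, a lipid phosphatase gene, and -0.10 for insig1, which restrains sterol synthesis, in the authors' deposited table. Fatty acid synthesis and NADPH supply (26 genes) had 0.02, with -0.05 for idh1 and 0.00 for acacb in the authors' deposited table. Intestinal lipid and sterol transport (32 genes) had a median of 0.05 in the authors' deposited table. Changes well below the smallest called rise of 1.42 were not detectable in single genes.

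The lists of protein handling and growth that follow also held no call, against 0.444% of all genes called. At that share no call is usual for lists of this size. For 84 ribosome biogenesis genes the median was 0.41 in the authors' deposited table and 75 were above 0. At an unadjusted p under 0.05, 6 of them were higher, against 1.79% of all genes. The 2 most abundant members, ddx21 and ncl, had -0.12 and 0.27 in the authors' deposited table. The 84 cytosolic ribosomal proteins had a median of -0.02, with -0.09 for rpl3 and -0.07 for rps2 in the authors' deposited table. Amino acid and peptide transporters (35 genes) had a median of -0.03, with 0.07 for slc15a1b, the intestinal peptide transporter gene, and 0.30 for slc38a4 in the authors' deposited table. The 63 genes of amino acid breakdown had -0.05, with -0.07 for ahcy and -0.05 for glud1b in the authors' deposited table. The 33 genes of the amino acid starvation response had 0.00, with -0.04 for chac1 and -0.09 for gpt2l in the authors' deposited table. Proteins are taken up whole by lysosome rich enterocytes in larval fish, and the 32 genes of that list had a median of -0.22 in the authors' deposited table. Of these 3 lay above 0. The values were -0.16 for ctsla and 0.45 for plac8.1, the highest of the list, in the authors' deposited table.

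Regulators of fasting, stress and time of day held no call either, against 0.444% of all genes, and no call is again usual for lists of this size. Of 42 clock genes 6 lay above 0 and 5 were lower at an unadjusted p under 0.05, against 0.756% of all genes. The median was -0.19, with 0.03 for cry2a and 0.27 for csnk1db in the authors' deposited table. The lowest member, nr1d4b of the Rev-erb receptors, had -1.29 (adjusted p = 0.12) in the authors' deposited table. Fasting and insulin-repressed genes (35) had a median of -0.13 and glucocorticoid targets (20) of 0.17, and both share pck1 (0.00) and tat (-0.18) as their most abundant members in the authors' deposited table. The 32 immediate early genes, which respond within minutes to stimulation, had a median of 0.12, with -0.16 for btg1 and 0.13 for dusp1 in the authors' deposited table.

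Markers of cell types gave no called member, against 0.444% of all genes called, a share at which no call is usual for lists of this size. Over 11 marker lists the medians of the authors' deposited table ran from -0.25 to 0.10. The lowest was that of 22 leukocyte markers, 5 of them above 0, with -0.81 (adjusted p = 1.00) for the neutrophil myeloperoxidase gene mpx, -0.44 for the macrophage gene mpeg1 and 0.10 for lyz in the authors' deposited table. Of 37 inflammation genes 0 were called, with a median of -0.01, -0.22 for c3a, -0.30 for cfb and -0.41 for il1b in the authors' deposited table. Liver markers (43, 10 above 0) had a median of -0.21, exocrine pancreas markers (26, 5 above 0) of -0.11 and enterocyte markers (24, 16 above 0) of 0.04 in the authors' deposited table. Their most abundant members were fetub (0.01) and apoa2 (-0.10) for liver, zgc:66382 (-0.08) and zgc:92041 (-0.07) for pancreas, and apoa4 (0.33) and apoa1a (-0.11) for enterocytes in the authors' deposited table. Blood cell markers (10) had a median of -0.21, with -0.36 for the globin gene hbae3, in the authors' deposited table. The summed level per group could not be had from a table without single samples, so the part of the makeup of the pools in the results was not tested.

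The same larval cohort had been sampled 1 h after the low-fat meal, and both times use the same unfed pools, so their fold changes are not independent and are only set side by side. For rsad2 the authors' deposited table gave 6.27 at 1 h and 5.49 at 4 h, for mxe 5.1 and 4.03, for isg15 3.78 and 3.05, and for cmpk2 4.68 and 4.37. For the chaperone genes it was 4.33 and 4.44 (serpinh1b), 3.19 and 3.64 (hsp70l), 2.04 and 2.84 (hsp90aa1.2) and 3.06 and 2.24 (dnajb1b) in the authors' deposited table. At 1 h the authors' deposited table called 349 genes higher (2.72%) and 172 lower (1.34%), more than at 4 h in both directions.

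The difference between the times was tested with the unfed pools cancelled, by a normal test on the implied errors with adjustment over all genes. Of 12828 genes 76 were higher (0.592%) and 171 lower (1.33%) at 4 h than at 1 h, or 12 and 23 with the errors of both comparisons added as if independent. Of the 57 genes called at 4 h, 5 differed. From the authors' deposited table, cyp2r1 was lower at 4 h by a log2 difference of -3.05 (95% interval -3.97 to -2.14), with 5.03 at 1 h and 1.98 at 4 h. From the same authors' deposited table rh50 was lower, with 3.33 and 1.46, and si:dkey-40g16.6, with 4.03 and 2.36. By contrast clec19a was higher at 4 h by 2.55 (95% interval 1.76 to 3.35), with 0.74 at 1 h (adjusted p = 0.52) and 3.29 at 4 h in the authors' deposited table. The other higher gene was si:dkey-7f3.14, with 0.61 and 1.90 in the authors' deposited table. For the other 52 called genes the 4 h minus 1 h values ran from -1.45 to 0.87 with a median of -0.46, and the median 95% half-width was 0.800. A difference was not shown for these genes, and equality was not shown either.

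**Figure D4:**
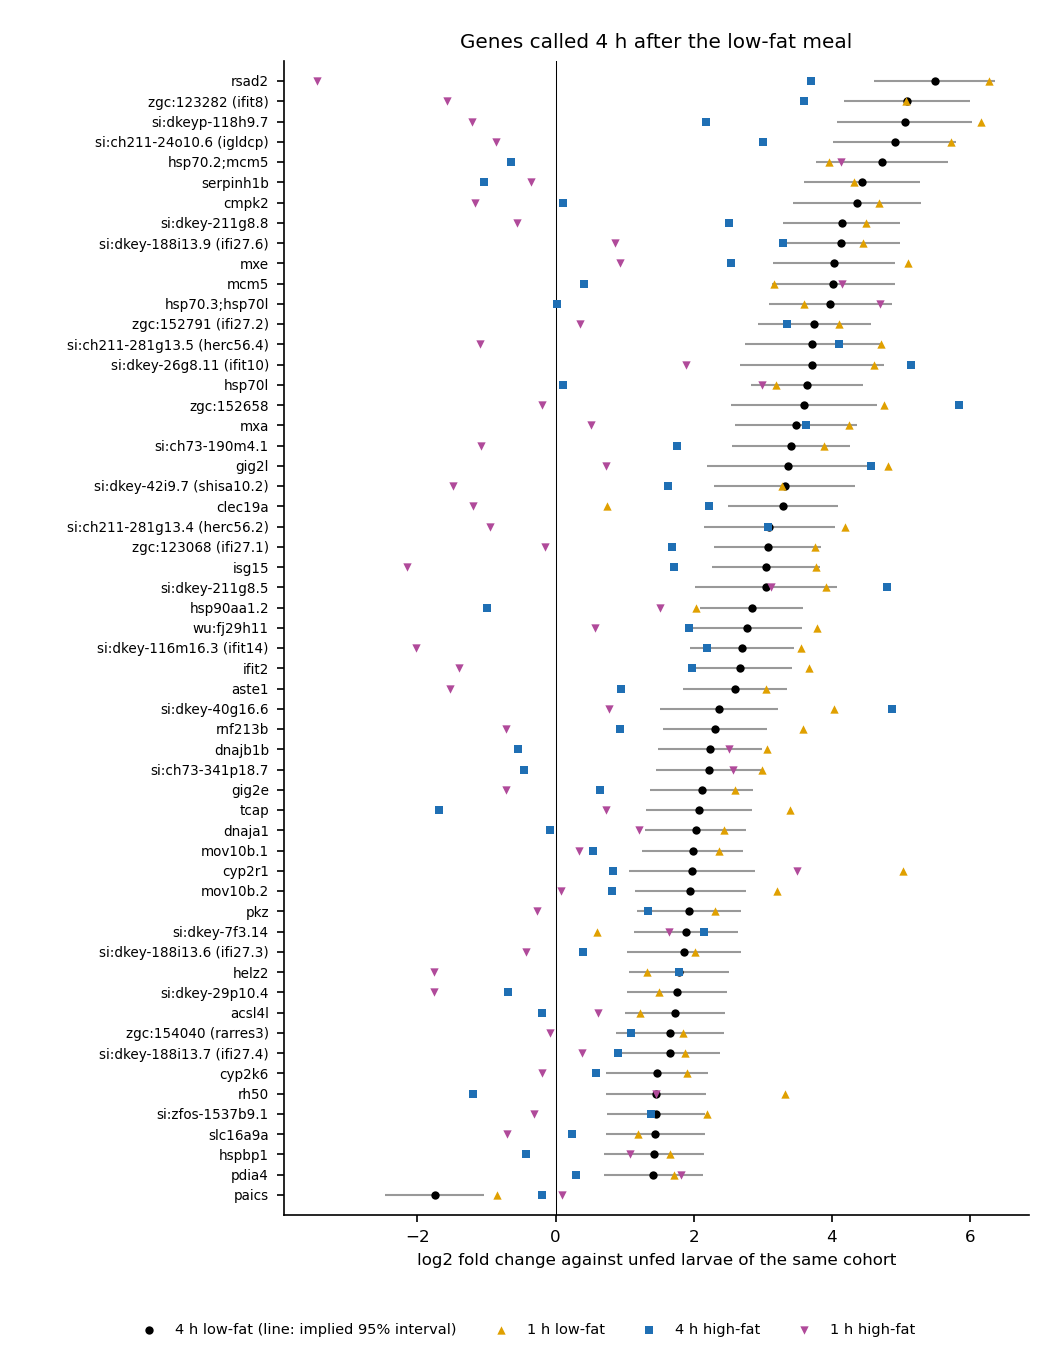
Log2 fold change against unfed larvae of the same cohort (horizontal axis), 1 row per gene. Shown are 56 of the 57 genes called 4 h after the low-fat meal. Clone-based symbols have the current RefSeq symbol in brackets where it differs. The values are for 4 h low-fat (black, with its 95% interval), 1 h low-fat, 4 h high-fat and 1 h high-fat. For hsp70l they are 3.64, 3.19, 0.11 and 2.99 in that order. The heat shock genes lie near or below 0 only at 4 h after the high-fat meal. The exception is serpinh1b, which is also below 0 at 1 h after the high-fat meal.

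Among the genes with the largest differences between the times, most values lay nearer to 0 at 4 h than at 1 h. The ammonia transporter gene rhcga had 3.41 at 1 h and -0.89 (adjusted p = 0.88) at 4 h in the authors' deposited table, a difference of -4.30 (adjusted p = 1.8e-25). The immediate early gene fosb had 2.35 and -0.62, and dhrs13a.2 2.64 and -0.31 in the authors' deposited table. In the other direction noxo1b, which organizes an NADPH oxidase, had -3.82 at 1 h and -0.19 at 4 h in the authors' deposited table, a difference of 3.63 (adjusted p = 1.9e-17). The neutrophil gene mpx had -3.29 and -0.81, ypel3 -2.83 and -0.44, crtac1a -2.80 and -0.50 and the fatty acid desaturase gene scd -2.21 and 0.12 in the authors' deposited table. None of these 8 genes was called at 4 h. The largest counts by list were 7 of 32 immediate early genes lower and 6 of 37 inflammation genes higher at 4 h. Of all genes 1.33% were lower and 0.592% higher than at 1 h. Some marker lists held such calls too. Lower were 3 of 24 enterocyte markers and 3 of 24 skin, eye and nervous tissue markers, with 0 higher. Of 22 leukocyte markers 2 were higher and 0 lower. The part of the makeup of the pools in these counts was not tested.

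The high-fat cohort had pools of its own at 4 h, so the meals can be compared. The authors' deposited table called 95 genes higher (0.741%) and 79 lower (0.616%) 4 h after the high-fat meal. Of these 95 genes 28 were also called higher after the low-fat meal, which is 50% of the 56 low-fat genes and 29.5% of the high-fat genes. Meal and cohort changed together, so they cannot be told apart.

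Antiviral genes were higher after both meals. Of the 28 interferon-induced genes, 11 rose in each cohort, against 0.437% (low-fat) and 0.741% (high-fat) of all genes called higher. The medians were 0.70 (low-fat) and 0.52 (high-fat) in the authors' deposited table. After the high-fat meal rsad2 rose by 3.69, mxa by 3.62, mxe by 2.55, ifit2 by 1.98 and isg15 by 1.71 in the authors' deposited table. The low-fat minus high-fat difference was 1.8 for rsad2 (95% interval 0.60 to 3.0, adjusted p = 0.32) and -0.14 for mxa (95% interval -1.53 to 1.25), and neither passed. One member did differ: cmpk2 had 4.37 after the low-fat and 0.10 after the high-fat meal in the authors' deposited table, a difference of 4.27 (95% interval 3.09 to 5.45, adjusted p = 3.2e-09). Of this neighbouring pair, rsad2 was called after both meals and cmpk2 after the low-fat meal. At 1 h after the high-fat meal, against the unfed pools that its 4 h value also uses, rsad2 had -3.45 (adjusted p = 9.5e-07), isg15 -2.14 (adjusted p = 1.4e-04) and ifit2 -1.40 (adjusted p = 0.014) in the authors' deposited table.

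The called heat shock genes differed between the meals. Of 30 measured members 0 were called 4 h after the high-fat meal, against 0.741% of all genes called higher and 0.616% lower. At those shares no call is usual for a list of this size. The median after that meal was -0.05 in the authors' deposited table. The 5 called after the low-fat meal all differed between meals, against 0.249% of all genes with the larger value after the low-fat meal. The choice of genes high after the low-fat meal favours that direction and such a call, so the share of all genes is no like measure. Of all 57 genes called after the low-fat meal, 15 differed in that direction. The difference was 5.48 for serpinh1b (95% interval 4.37 to 6.58), with 4.44 after the low-fat and -1.04 after the high-fat meal in the authors' deposited table. It was 3.83 for hsp90aa1.2 (2.84 and -0.995), 3.53 for hsp70l (3.64 and 0.11), 2.77 for dnajb1b (2.24 and -0.54) and 2.11 for dnaja1 (2.03 and -0.07) from the authors' deposited table. At 1 h after the high-fat meal hsp70l had 2.99 (adjusted p = 2.5e-11), dnajb1b 2.51 (adjusted p = 2.4e-08) and hsp90aa1.2 1.52 (adjusted p = 0.0034), while serpinh1b had -0.35 (adjusted p = 0.99) in the authors' deposited table.

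Over all genes the low-fat minus high-fat difference at 4 h was called higher in 32 (0.249%) and lower in 28 (0.218%). In either direction this is 0.468%. Of the 57 genes called after the low-fat meal 16 differed between meals, 15 of them with the larger value after the low-fat meal. The choice of genes high after that meal favours both such a call and that direction. The 1 exception was si:dkey-40g16.6, with 2.36 after the low-fat and 4.87 after the high-fat meal in the authors' deposited table. The sarcomere gene tcap was called in opposite directions, with 2.08 after the low-fat and -1.69 (adjusted p = 0.0035) after the high-fat meal in the authors' deposited table, a difference of 3.77. Of 45 skeletal muscle markers 0 were called after the low-fat meal, against 0.444% of all genes. Their median was -0.02 in the authors' deposited table. After the high-fat meal 7 were lower, against 0.616% of all genes, with a median of -0.98 in the authors' deposited table. The part of these markers in the tcap value was not tested. The purine enzyme gene paics had -1.75 and -0.20 in the authors' deposited table, and its difference of -1.55 did not pass (95% interval -2.56 to -0.54, adjusted p = 0.28). Among genes with a log2 CPM of 1 or more, the largest difference in the other direction was that of plin2, -5.03 (adjusted p = 1.4e-15), with -0.70 after the low-fat and 4.33 after the high-fat meal in the authors' deposited table.

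**Figure D5:**
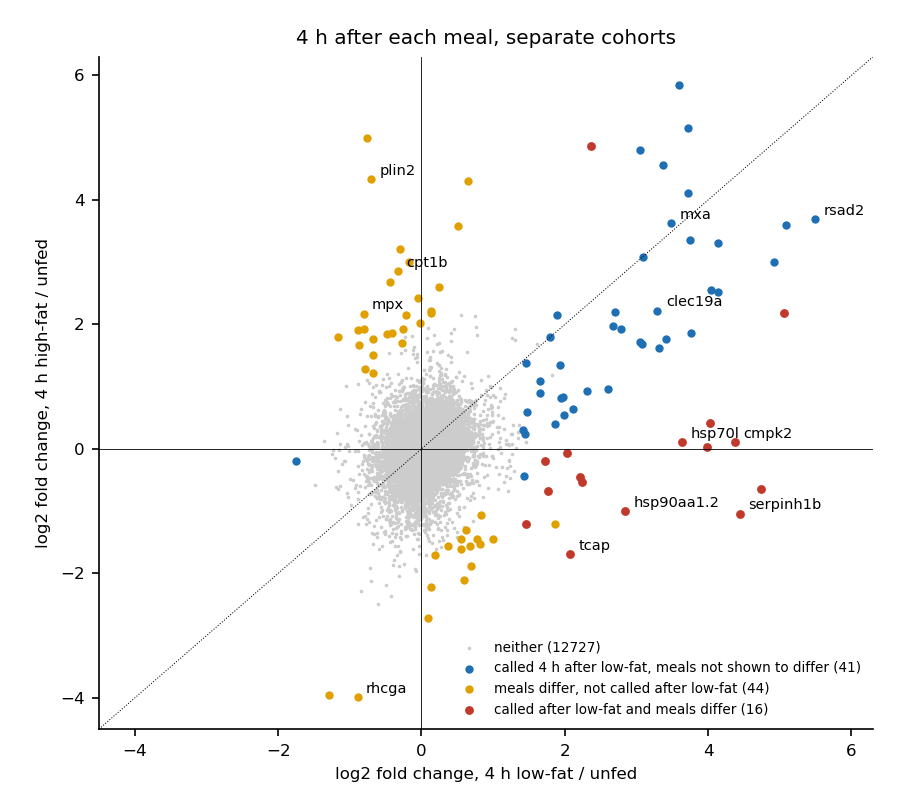
Log2 fold change of each gene 4 h after the high-fat meal (vertical axis) against that 4 h after the low-fat meal (horizontal axis), each relative to the unfed larvae of its own cohort, with a dotted line where both are equal. The heat shock gene hsp70l lies near the horizontal axis at 3.64 and 0.11, plin2 near the vertical axis at -0.70 and 4.33, and rsad2 is high on both, at 5.49 and 3.69.

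At the edge of the calls, the 6 genes with the smallest adjusted p above 0.05 were hspa4a (given above), c7a, fgf13b, si:ch211-121a2.2, zgc:114104 and phgdh. The complement gene c7a had -1.49 (adjusted p = 0.063), the fibroblast growth factor family gene fgf13b 1.36 (adjusted p = 0.063) and phgdh, which starts serine synthesis, -1.37 (adjusted p = 0.082) in the authors' deposited table. The value was 1.87 for si:ch211-121a2.2 (adjusted p = 0.074) and 1.46 for zgc:114104 (adjusted p = 0.078) in the authors' deposited table. At the edge of the abundance floor, the called genes just inside were shisa10.2 (si:dkey-42i9.7) and si:dkey-211g8.5, with a log2 CPM of 0.05 and 0.06. Their log2 fold changes were 3.32 and 3.05 in the authors' deposited table. Just outside lay steap3 and ftr41, with a log2 CPM of -0.02 and -0.04. Their log2 fold changes were 2.03 and 3.07 in the authors' deposited table.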

How the data were processed

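Poly(A) RNA of pooled larval digestive organs was sequenced as reads of 50 bases, per the labels' protocols. The submitters' processing notes name TopHat2, edgeR and build Zv9. Their versions, the counter used and the annotation are not stated in the sources used. The authors deposited a table of their own comparisons with 56754 transcripts and 0 columns of single samples. Per the file headers, each transcript has a log2 fold change, an average log2 CPM, a p-value and its adjusted value. Adjustment was by the Benjamini-Hochberg method across every row, as checked on the table. The count test planned for single samples could not be used, so calls are the authors'. Depth per sample is unknown.

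Computed here (Python 3.11.15, pandas 2.3.3, scipy 1.17.1) were the choice of 1 transcript per symbol, standard errors implied by fold change and p, and differences between comparisons with a normal test and Benjamini-Hochberg adjustment over 12828 genes. That test was run on simulated data whose noise was normal and set to the same implied errors. Such a run could not show how well those errors hold for real pools. For 4 h minus 1 h, the shared unfed pools cancel and the error is the root of the mean squared error. These intervals and tests carry little of each gene's own spread. The 36 gene lists were matched by symbol or RefSeq synonym (GRCz12tu, names only; 89 members by synonym). Members and lists were chosen with earlier results of these data known. By rule, the text names every called gene (clone-based or joined symbols only in a list or among the 5 largest rises) and called list members. Of the lists without a call only some are described, most of them by their 2 most abundant members. Also named are up to 8 genes per direction of each difference, the 6 nearest misses and plin2. Others were chosen after their values were seen, and 1 called gene is not reported here. Positions are 1-based on Zv9. Floors, transcript choice, adjustment, threshold and centring were varied. Whether replicates of a group are separate crosses comes from the design text.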

Additional observations from a re-analysis of the deposited data

Results flagged for a closer look

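The change against unfed larvae at 4 h differed between the meals, by a test of the difference itself, for the 19 symbols listed here. They are part of the 60 genes called for this difference. The symbols hsp70.2;mcm5, hsp70.3;hsp70l and mcm5 have the same coordinates, so their values are not independent. The 19 leave out clone-based symbols named for other reasons (si:dkey-40g16.6, with -2.51, is one). The values that follow are low-fat minus high-fat differences of log2 fold changes from the authors' deposited table, each against the unfed larvae of its own cohort, and meal and cohort cannot be told apart.

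Of the heat shock group and its overlapping locus, the difference was 5.48 for serpinh1b, 5.38 for hsp70.2;mcm5, 3.96 for hsp70.3;hsp70l, 3.83 for hsp90aa1.2, 3.61 for mcm5, 3.53 for hsp70l, 2.77 for dnajb1b and 2.11 for dnaja1 (adjusted p from 2.8e-18 to 0.014). Of the antiviral group it was 4.27 for cmpk2. Of other genes called after the low-fat meal it was 3.77 for tcap, 2.88 for si:dkeyp-118h9.7 (adjusted p = 0.011), 2.65 for rh50 and 1.93 for acsl4l (adjusted p = 0.043). The sarcomere gene tcap rose after the low-fat and fell after the high-fat meal.

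In the other direction it was -5.03 for plin2, -3.19 for cpt1b, a gene of mitochondrial fatty acid import, -3.17 for klf11b, -3.07 for si:dkey-7f3.15, -2.98 for mpx and -2.53 for klf11a. None of these 6 genes was called 4 h after the low-fat meal, and their high-fat values in the authors' deposited table ran from 1.66 (klf11a) to 4.33 (plin2), all called.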

How the results depend on the processing

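The count of genes higher 4 h after the low-fat meal was 56 and ran from 48 (adjusted p under 0.01) to 69 (no abundance floor) over 8 alternatives. The 1 lower gene became 20 with no floor, 2 when p was adjusted over the 12828 genes alone and 3 at an adjusted p under 0.1, and stayed 1 under the other 5. All 57 called genes were shared when fold changes were centred on the median gene, and 56 when the median over transcripts was used, which lost cyp2r1 (adjusted p = 0.18). At 0.01 the 8 calls lost were those of cyp2k6, cyp2r1, hspbp1, pdia4, rh50, si:zfos-1537b9.1, slc16a9a and zgc:154040. Adjustment over the genes alone added hspa4a, c7a and fgf13b. Of 63 genes recomputed, the 57 called and some others such as plin2, none changed sign. Floors, threshold and adjustment leave a fold change as it is, and centring moved it by 0.02. Only the choice of transcript could therefore have changed a sign. With errors added as if independent, the 4 h minus 1 h difference was called higher in 12 and lower in 23 genes (76 and 171 as reported). With a log2 CPM of at least 1, the low-fat minus high-fat difference was called lower in 18 genes (28 as reported).

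No paired analysis was possible because single samples have no values in the table. For the same reason the replicate block, leaving out single replicates and DESeq2 were not run. The limits are an unknown depth, p-values that carry little of each gene's own spread, and a smallest called rise of 1.42.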

Other observations

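Below the abundance floor, or on other transcripts of a gene, the authors' deposited table held further calls 4 h after the low-fat meal, picked here after their values were seen. Of 96 symbols with a called transcript 39 were outside the 57 genes, 35 of them because their most abundant transcript had a log2 CPM under 0. The lower calls lay almost wholly there: 31 of the 36 transcripts called lower had a log2 CPM under 0, as against 35 of the 143 called higher. The P450 gene cyp2aa8 fell by 3.57 (adjusted p = 2.6e-11) and the dehydrogenase family gene sdr42e2 fell by 3.52 (adjusted p = 3.7e-07) in the authors' deposited table. At 1 h, against the same unfed pools, they had -2.75 and -3.0 in the authors' deposited table. In the high-fat cohort at 4 h the authors' deposited table gave 0.92 and 1.74, both uncalled. Genes of the finTRIM family, a fish group of antiviral ubiquitin ligase genes, rose: ftr41 by 3.07, ftr11 by 2.42 and ftr73 by 2.17 in the authors' deposited table.

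For zgc:161979, named afp4 in RefSeq, 2 rarer transcripts at 48968216 to 48974113 of chromosome 16 rose by 4.01 and 4.27. Its most abundant transcript, at 48978543 to 48981385, had 0.75 (adjusted p = 1.00) in the authors' deposited table. These positions do not overlap, so the transcripts may not be forms of the same gene. Of 179 called transcripts 36 carry no symbol and, apart from that given above beside the lipid lists, were not described.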
